A study of Homo sapiens with 2 samples.

Results

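The major histocompatibility complex (MHC) was described here through its H3K27ac HiChIP loops in KYSE180, an established cell line of esophageal squamous cell carcinoma (ESCC). HiChIP joins DNA ends that lie close together in the nucleus and enriches them with an antibody, here against H3K27ac, which marks promoters and enhancers in use. The study's methods describe the loops as associated with p63, a transcription factor of squamous epithelium, and keep those with H3K27ac at both ends. The cells had been transfected with a non-targeting siRNA, and the 2 libraries of this 1 condition, labelled as replicates 1 and 2, share 1 list of loops. No value therefore has a replicate spread, and no comparison between conditions or test across samples was possible. Intervals are 95% intervals (Wilson for shares, exact Poisson for counts) and cover counting error only. A loop joined a pair of 2 kb bins (anchors), and was counted where both bins start between 29.6 and 33.4 Mb of chromosome 6 (hg19, the build in the submitters' processing notes). This gave 262 loops. The 6 loops with a bin in a 22 kb window inside the class II region were left out by the rule, which left 256 of the 31950 loops of the list (0.801%), or 14.4% of the 1777 loops of chromosome 6.

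The MHC is a gene-dense region with many genes of the immune system. Class I molecules sit on nearly all nucleated cells and present peptides made inside the cell to cytotoxic T cells, and many tumors lower them. Class II molecules (HLA-DR, HLA-DQ and HLA-DP) are normally made by professional antigen-presenting cells, and epithelial cells make them mainly when interferon gamma induces the transactivator CIITA. The class III region between them holds no HLA genes but cytokine genes of the tumor necrosis factor family, complement genes, heat shock genes and many genes needed in every cell.

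The region was divided by position. Class I ran from 29.6 to 31.5 Mb, class III to 32.4 Mb, classical class II to 33.1 Mb and extended class II to 33.4 Mb. In the order of genes in the annotation (GENCODE 44), 49 protein-coding genes lie from ZFP57 to MICB, 6 of them HLA genes, and 69 from MCCD1 to BTNL2, with 0 HLA genes. From HLA-DRA to HLA-DPB1 there are 20, of which 13 are HLA genes, and from COL11A2 to KIFC1 there are 17, with 0 HLA genes. This annotation is on hg38, so it served only for names and order. No gene was placed on an anchor, no position was converted, and no sequence of an anchor is printed.

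The loops kept by the rule lay mostly in class I, class III and extended class II, and few lay in classical class II. The window left out lies in classical class II, so the values of this part, here and below, exclude the 6 loops with a bin in that window. Class I held 126 loops with both bins inside it (131 contacts, 95 anchors), class III 76 (80 contacts, 61 anchors) and extended class II 30 (30 contacts, 33 anchors). Classical class II held 3 loops, with 3 contacts between 5 anchors. The other 21 loops (8.20%) joined different parts. Per megabase this came to 66.3 loops in class I (interval 55.2 to 79.0), 84.4 in class III (66.5 to 106) and 100 in extended class II (67.5 to 143). Classical class II had 4.29 loops per megabase (0.884 to 12.5), and its interval overlapped none of the other 3, which overlapped each other.

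**Figure D1:**
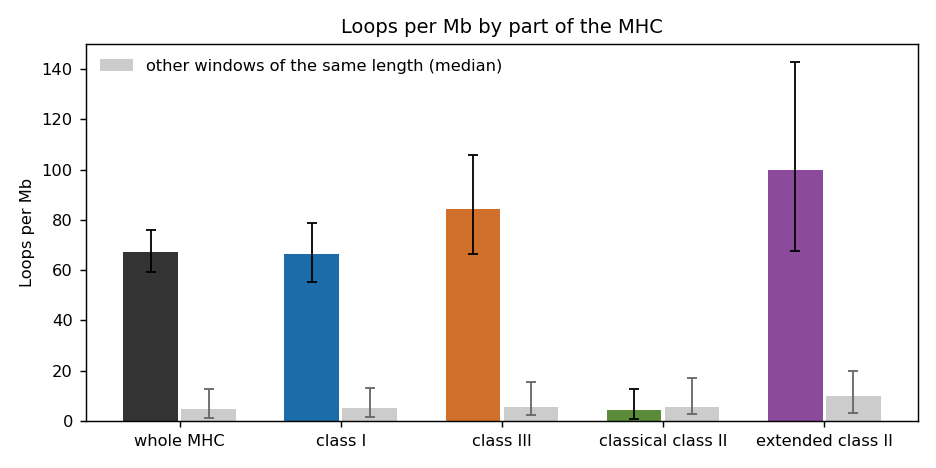
Loops per Mb in the whole MHC and its 4 parts (coloured bars, with exact Poisson 95% intervals), beside the median of all other windows of the same length that hold a loop (grey bars, with quartiles). Class I, class III and extended class II lie far above the grey bars. Classical class II, at 4.29 without the loops left out, lies within the quartiles of its own.

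The same count was made in all other windows of equal length along the genome that held at least 1 loop inside. The 256 loops of the MHC stood beside a median of 17.5 in 704 windows of 3.8 Mb, and 11 of them (1.56%) had as many. For class I, 2.38% of 1133 windows of 1.9 Mb had as many loops, for class III 2.51% of 1754 windows of 0.9 Mb, and for extended class II 2.35% of 2814 windows of 0.3 Mb. The 3 loops of classical class II were reached by 64.6% of 1994 windows of 0.7 Mb, whose median was 4. Counted without the loops left out, classical class II was thus sparse beside its neighbours, but not beside other windows of the list. The 256 loops of the MHC were taken out before those windows were counted, so windows over other parts of the MHC lacked them. No other loop was left out. The loops left out by the rule stayed in, so the MHC itself could still count as a window through them. The gene content of windows was not part of this count.

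Nearly all of these loops were seen once. In the MHC 247 loops rested on 1 contact, and 9 (3.52%, interval 1.86 to 6.55%) had 2 contacts, the highest number there. Over the whole list 3.36% of loops had 2 or more contacts, so this share is near the background. The 9 loops lay 5 in class I and 4 in class III, and 7 of them spanned 10 to 50 kb. In that class of span 6.80% (3.33 to 13.4%) of MHC loops and 7.27% (6.77 to 7.80%) of the other loops of the list had 2 or more contacts.

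The second number given for each loop was read as the coverage of its first bin, since it is the same for every loop of that bin. Its median was 17.5 over the 146 first bins of the MHC (quartiles 12 and 30, range 4 to 70), against 12 in the rest of the list and 13 in the rest of chromosome 6. Class I (median 18), class III (18.5) and extended class II (20) lay close together, while the 3 first bins of classical class II had 6, 7 and 8. Median coverage had the same order between the parts as loops per megabase, and its part in these values was not tested. Across first bins, the Spearman correlation of coverage with the number of loops was 0.42 over 156 bins of the MHC (first bins of loops that leave the region included) and 0.47 over the 21480 others, as a description of bins that share the same libraries.

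Along the region the loops lay in separate blocks. Stretches of at least 100 kb without an anchor divided the MHC into 9 blocks, and 206 loops (80.5%) stayed within their block. The space between the blocks of classical and extended class II holds the 22 kb window left out, so it is wholly without an anchor only through the rule. Whether the rest of that space would still divide these blocks was not counted. Counted in windows of 0.1 Mb, the 4 windows with the most loop ends held 238 of the 512 ends (46.5%), while 9 of 38 windows held none. Of these 9, the window from 32.9 Mb was emptied by the rule, since all 6 loops left out had a bin there. The highest window, from 30.7 Mb, had 84 ends. Among 9334 other windows with an end, 33 had as many, and their median was 3.

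**Figure D2:**
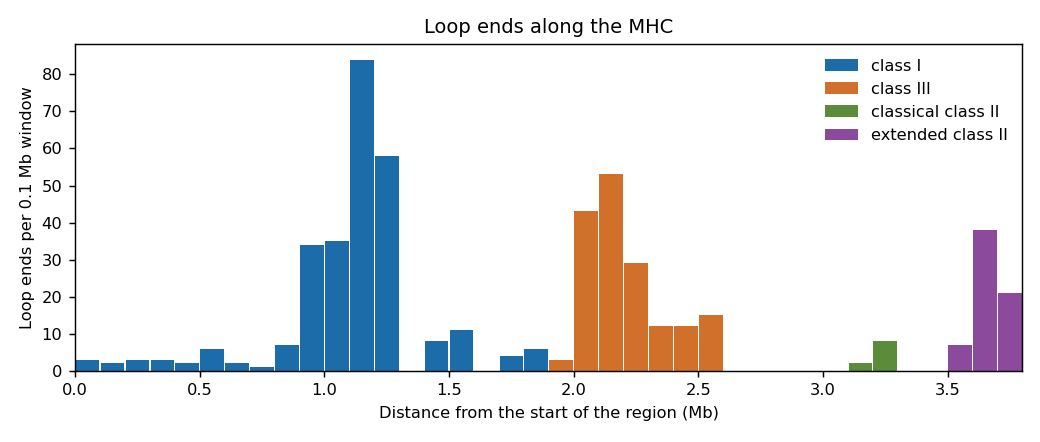
Number of loop ends in each window of 0.1 Mb against the distance from the start of the region, coloured by part. The highest bar (84 ends) lies in class I, and a second group of bars in class III reaches 53. The classical class II windows hold 10 ends in all, without the 6 loops left out by the rule.

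Class I was led by a block of 428 kb, chr6:30456001-30884000. It held 95 loops within it (37.1% of all MHC loops) with 99 contacts between 69 anchors, or 222 loops per megabase. Of its pairs of anchors at least 10 kb apart, 4.25% were joined. The 0.856 Mb of class I below it held 18 anchors, and 15 loops had a bin there. Of these 15 loops, 7 stayed there and 5 reached the 428 kb block. In gene order, a group of TRIM genes, among them ubiquitin ligases, lies in class I before HLA-E. The 29 protein-coding genes between HLA-E and HLA-C have largely other roles. They include TUBB, a tubulin, FLOT1, a flotillin of membrane rafts, IER3, a stress-induced early response gene, DDR1, a collagen receptor of epithelial cells, and CDSN, which encodes corneodesmosin, an adhesion protein of cornified epithelium.

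The most connected anchor of the MHC was chr6:30844001-30846000 in this block, with 12 loops of 1 contact each. Its partners lay 10 to 286 kb away, 8 below and 4 above, and all were in class I. Its coverage was 55, and 105 anchors of the list (itself included) had as many loops. The next was chr6:30796001-30798000, with 10 loops, 11 contacts and a coverage of 43. Of its partners 9 lay above it, at spans of 12 to 668 kb, and 1 lay 144 kb below. The third was chr6:30882001-30884000, the upper edge of the block, with 9 loops, 10 contacts and a coverage of 54. It reached down to 7 partners at 24 to 358 kb, and 1 of its 2 loops upward ran 908 kb into class III.

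Where anchors touch, they were joined into stretches, of which the MHC had 106. The stretch chr6:30784001-30800000, 16 kb long, had 41 loops with 43 contacts, 16.0% of all loops of the MHC. These joined it to 22 other stretches, 25 loops running upward and 16 downward, with a median span of 80 kb. Its 8 bins were unequal and had from 1 to 10 loops. In the list as a whole 21 of 22628 stretches (itself included) had as many loops, and 21 were as long. The other leading stretches of class I were chr6:30842001-30848000 with 20 loops and chr6:30708001-30716000 with 19. The 16 kb stretch was joined to the first of these by 4 loops and to the second by 3. It also had 4 loops each to chr6:30850001-30852000 and to chr6:30882001-30884000.

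**Figure D3:**
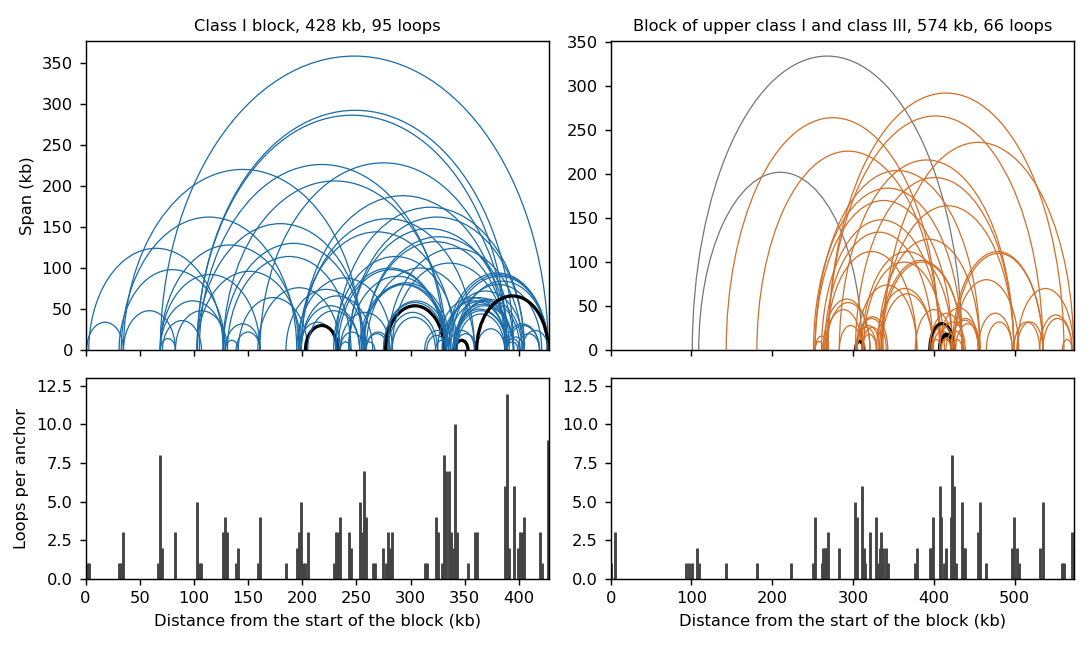
Arcs for the loops within the block with the most loops (left, 95 loops, in class I) and the block with the next most (right, 66 loops, upper class I and class III), against the distance from the start of each block in kb. Arc height is the span in kb, black arcs have 2 contacts, grey arcs join class I to class III, and the lower row gives the number of MHC loops at each anchor, up to 12 on the left and 8 on the right.

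Of the 5 class I loops with 2 contacts, 4 lay in this block. They joined chr6:30658001-30660000 to chr6:30688001-30690000 (30 kb), chr6:30732001-30734000 to chr6:30786001-30788000 (54 kb), chr6:30796001-30798000 to chr6:30808001-30810000 (12 kb) and chr6:30816001-30818000 to chr6:30882001-30884000 (66 kb). Thus 2 of them ended in the 16 kb stretch. The other loop with 2 contacts, spanning 10 kb, joined chr6:29620001-29622000 to chr6:29630001-29632000 near the lower end of the region. The first bins with the highest coverage in class I were chr6:30524001-30526000 and the 12-loop anchor, at 55 each. The former had 8 loops, and 7 of its partners lay above it, the farthest at 1572 kb in class III.

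A block of 134 kb, chr6:31040001-31174000, had 8 anchors with 0 loops among themselves, where 26 pairs lay at least 10 kb apart. A count of 0 allows up to about 3 loops, by a 1-sided 95% limit rather than the exact interval used elsewhere. At the 3.91 to 5.86% of pairs joined in the 3 blocks with the most loops, a count this low is not set apart from theirs. All of its 19 loops left it, at 196 to 2236 kb, and 14 of them ran down to the 428 kb block over a gap of 156 kb. The anchor chr6:31156001-31158000 had 5 loops, 3 of which ended in other parts of the MHC. Above this block, 194 kb of class I up to chr6:31368000 had no anchor of an MHC loop, and 1 loop with a bin there left the region. The genes HLA-C and HLA-B close the order of class I together with MICA and MICB, the stress-induced ligands of the NKG2D receptor.

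Within class I the median span was 83 kb (quartiles 41 and 194). The longest loop, of 1082 kb, joined chr6:29760001-29762000 to chr6:30842001-30844000, and the next, of 712 kb, joined chr6:30660001-30662000 to chr6:31372001-31374000. Both had 1 contact. Loops of 200 kb or more made up 23.8% of the class I loops (interval 17.2 to 32.0%), next to 27.5% of the loops that lay inside the other windows of 1.9 Mb.

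Most class III loops lay in a block of 574 kb, chr6:31368001-31942000, whose lower end is still in class I. It held 66 loops with 70 contacts between 60 anchors, and 3.91% of its pairs at least 10 kb apart were joined. A second block of 112 kb, chr6:32056001-32168000, had 7 loops among 13 anchors and 13 loops to other blocks, 7 of them to the first. Class III loops had a median span of 47 kb (quartiles 28 and 116), and this class is shorter than class I, which favours short loops. Spans of 10 to 50 kb made up 51.3% (40.3 to 62.2%) of class III loops and 31.0% (23.5 to 39.5%) of class I loops. Among loops inside the other windows of 0.9 Mb the share was 42.9% and the median span 64 kb, and for windows of 1.9 Mb these were 38.0% and 80 kb, so each class's share had that of its own window length within its interval. The longest loop of class III, 432 kb from chr6:31688001-31690000 to chr6:32120001-32122000, was well below the length of this class, and the next, of 386 kb, joined chr6:31670001-31672000 to chr6:32056001-32058000.

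The anchor of class III with the most loops was chr6:31790001-31792000, with 8 loops and 9 contacts. It also had the highest coverage of the MHC, 70, which 1.51% of the first bins of the list reached. It looked mainly downward, with 6 partners below and 2 above at spans of 12 to 908 kb. Its neighbour chr6:31792001-31794000 had 6 loops with 8 contacts. Together with the bins on both sides they form the stretch chr6:31788001-31796000, which had 19 loops with 22 contacts to 11 other stretches. The next stretches of class III were chr6:31696001-31706000 with 12 loops and chr6:32094001-32102000 with 11, of which 5 went to other blocks. The anchors chr6:31774001-31776000 (8 contacts) and chr6:31678001-31680000 (6 contacts) had 6 loops each. Among first bins, chr6:31632001-31634000 had the second highest coverage, 67, but only 2 loops, so high coverage did not always come with many loops.

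The 4 class III loops with 2 contacts were gathered in a short space. The 31774001 anchor reached chr6:31790001-31792000 (16 kb) and chr6:31792001-31794000 (18 kb) with 2 contacts each, and the latter was also joined to chr6:31762001-31764000 (30 kb). The fourth joined chr6:31670001-31672000 to chr6:31680001-31682000 over 10 kb. The stretches chr6:31774001-31778000 and chr6:31788001-31796000 thus had 4 loops with 6 contacts between them, the most contacts of any pair of stretches in the MHC. The gene order of class III runs from the tumor necrosis factor family (LTA, TNF and LTB) through the heat shock genes HSPA1L, HSPA1A and HSPA1B to the complement genes C2 and CFB and the receptor gene NOTCH4.

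The longest space without an anchor in the MHC ran for 614 kb, chr6:32168001-32782000, from class III into classical class II. No MHC loop and no loop that leaves the region had a bin there, while 8 loops passed over it. Spaces of this length are frequent in the list, where 825 of 4103 gaps of at least 100 kb (20.1%) were as long. By the study's methods the list holds loops associated with the transcription factor p63 that have H3K27ac at both ends. A lack of p63 peaks, of the mark, of contacts or of aligned reads therefore cannot be told apart there.

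Classical class II had its 3 loops within 44 kb, chr6:32782001-32826000. They joined chr6:32786001-32788000 to chr6:32810001-32812000 (24 kb), chr6:32806001-32808000 to chr6:32824001-32826000 (18 kb) and chr6:32810001-32812000 to chr6:32820001-32822000 (10 kb), each with 1 contact. None of the 7 anchors in this block had more than 2 loops, and chr6:32806001-32808000 used its second to reach extended class II over 436 kb. The stretch chr6:32820001-32826000 collected 4 loops, of which 2 came from class III, at 672 and 1114 kb. Coverage of 6 to 8 is low, since 76.0% of all first bins of the list had 8 or more. The next gap, of 342 kb up to chr6:33168000, holds the window left out. All 6 loops left out had a bin in that window, so this gap is wholly free of anchors only through the rule. How much of its 342 kb would stay without an anchor was not counted. In gene order the antigen processing genes TAP2, PSMB8, PSMB9 and TAP1 lie between HLA-DOB and HLA-DMB. TAP1 and TAP2 form the peptide transporter that loads class I molecules, and PSMB8 and PSMB9 are subunits of the immunoproteasome. Whether the 44 kb block lies at these genes was not placed.

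**Figure D4:**
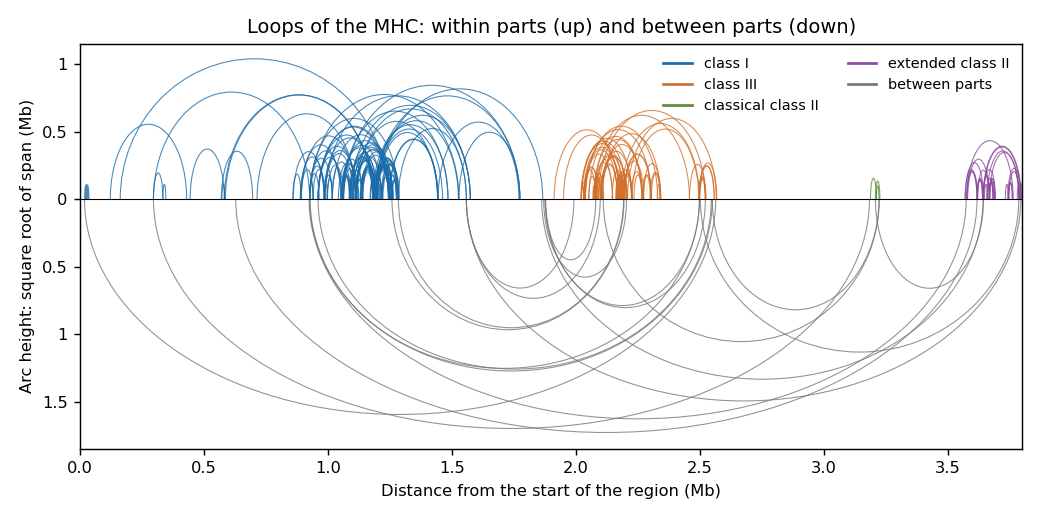
Loops of the MHC against the distance from the start of the region in Mb, with those inside a part drawn upward and the 21 between parts drawn downward. Arc height is the square root of the span in Mb, and between class III and classical class II the 614 kb without anchors are crossed by 8 downward arcs and hold no arc's end.

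All 30 loops of extended class II had 1 contact and lay in a block of 232 kb, chr6:33168001-33400000. Their median span was 26 kb (quartiles 16.5 and 51). The upper end of this block is set by the rule, since the next anchor of the list was chr6:33424001-33426000. Another 20 loops with a bin in this part ran upward out of the region, at 130 to 3440 kb, and are not among the 30. The share spanning 10 to 50 kb was 73.3% (55.6 to 85.8%), which its length of 0.3 Mb favours: loops inside the other windows of 0.3 Mb had a share of 58.3%. The anchor chr6:33266001-33268000 had 6 loops at 14 to 120 kb, 5 of them upward, and a coverage of 66. Next came chr6:33216001-33218000 with 5 loops and chr6:33240001-33242000 with 4. Between stretches, chr6:33216001-33220000 and chr6:33238001-33244000 had 3 loops, as did chr6:33264001-33270000 and chr6:33280001-33286000. Over all their loops these stretches had 8 (33216001), 10 (33238001) and 9 (33264001). The longest loop spanned 188 kb, from chr6:33174001-33176000 to chr6:33362001-33364000, and the next 154 kb, from the 4-loop anchor to chr6:33394001-33396000. The first bin chr6:33168001-33170000 had the second highest coverage of extended class II, 58, with 2 loops. Genes of this part include COL11A2, a collagen chain, RXRB, a nuclear receptor, RING1, a Polycomb subunit, DAXX, a histone H3.3 chaperone, and TAPBP, which encodes tapasin of the class I loading complex.

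**Figure D5:**
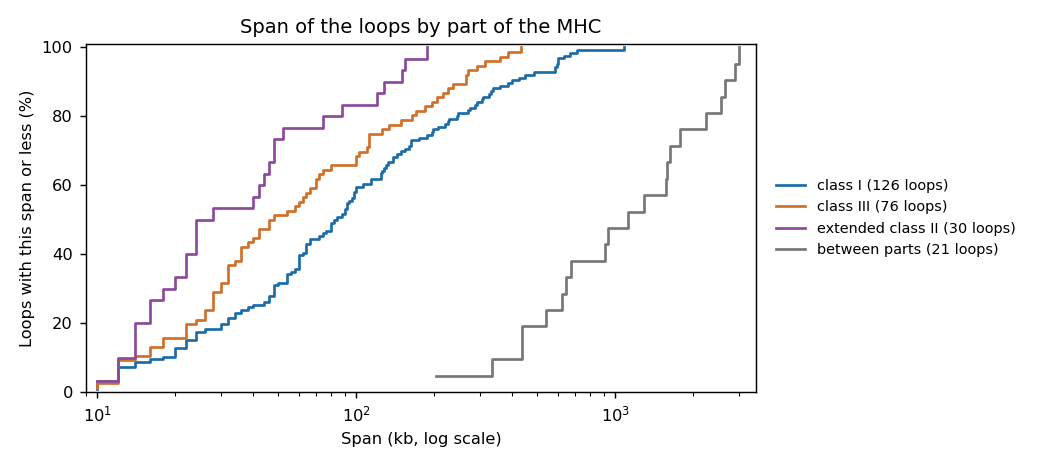
Cumulative share of loops by span (kb, log axis) for class I, class III, extended class II and the loops between parts. The median rises from 26 kb in extended class II to 47 kb in class III, 83 kb in class I and 1114 kb between parts.

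Of the 21 loops between parts, 12 joined class I to class III, with a median span of 777 kb, and 4 joined class I to extended class II. The others were 2 from class III to classical class II, 1 from class III to extended class II, 1 from classical to extended class II, and 1 from class I to classical class II. All had 1 contact, and the coverage of their first bins ranged from 7 to 55. The longest, of 2990 kb, joined chr6:30226001-30228000 to chr6:33216001-33218000. The loop of 2888 kb joined chr6:29894001-29896000 to chr6:32782001-32784000, and that of 2650 kb joined chr6:30522001-30524000 to chr6:33172001-33174000. The next longest spanned 2546 and 2236 kb. Some of the leading anchors took part in shorter ones. The 9-loop anchor of class I was joined to the 8-loop anchor of class III over 908 kb, and chr6:30856001-30858000 to its neighbour chr6:31792001-31794000 over 936 kb, so that both reached the 19-loop stretch of class III. Near the class boundary, chr6:31474001-31476000 reached chr6:32096001-32098000 and chr6:32120001-32122000 in the 112 kb block.

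Besides the members and any loop with a bin in the window left out, 47 loops had 1 bin in the MHC and 1 outside, each with 1 contact. From class I, 17 ran downward and 5 upward, at spans of at least 1754 kb. All 4 from class III and all 20 from extended class II ran upward, and those of extended class II had a median span of 344 kb. The single one from classical class II ran 4958 kb downward. The bins outside lay between chr6:25488001 and chr6:28956000 below and between chr6:33520001 and chr6:36684000 above. Counting every loop with a bin in a part, 76.4% (69.3 to 82.2%) of 165 stayed within class I and 80.0% (70.9 to 86.8%) of 95 within class III. The share was 53.6% (40.7 to 66.0%) of 56 for extended class II, which the rule cuts at its upper end. For classical class II, counted without the window left out, it was 3 of 8 (37.5%, 13.7 to 69.4%). At the limits of the region, the lowest anchor inside was chr6:29616001-29618000 and the next one below was chr6:29596001-29598000, with 1 loop each. The highest inside was chr6:33398001-33400000 with 1 loop, and the next above was chr6:33424001-33426000 with 2.

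Anchors of the MHC had more loops each than those of the rest of the list. Of its 209 anchors 40.2% had 1 loop when only MHC loops were counted, against 59.3% of the others over all loops of the list. Counting loops that leave the region can only lower the first share. Over all loops of the list, 16 of the 209 (7.66%, interval 4.77 to 12.1%) had 6 or more, against 3.02% (2.84 to 3.20%) of the others. These 16 anchors lay 10 in class I, 4 in class III and 2 in extended class II. Of the 201 pairs of stretches joined, 40 (19.9%) had 2 or more contacts, counting all loops between them, against 10.96% of 28170 pairs in the rest of the list. By span this was 34.2% (24.4 to 45.7%) against 24.1% (23.2 to 25.1%) for pairs 10 to 50 kb apart, whose intervals overlap, and 21.2% (13.1 to 32.5%) against 10.5% (9.85 to 11.2%) at 50 to 200 kb, whose intervals do not. At 200 kb or more it was 1 of 62 pairs (1.61%) against 3.004%. Anchors and pairs share loops and bins, so the intervals are too narrow. The higher median coverage of the MHC moves with these shares, and its part in them was not tested. Longer stretches can also gather more loops per pair, and stretch length was neither matched nor tested.

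Through their loops, 187 of the 209 anchors (89.5%) formed a single connected group that ran from class I to extended class II, with 243 loops. Another group had 6 anchors, and 8 groups were isolated pairs. Sets of 3 anchors that were all joined to each other were few, 7 in all, of which 6 lay in class I and 1 ran between parts. Of the MHC loops, 84.0% (79.0 to 88.0%) passed over at least 1 other stretch of the region. The share was 87.3% (80.4 to 92.0%) in class I, 85.5% (75.9 to 91.7%) in class III and 56.7% (39.2 to 72.6%) in extended class II. Groups, sets of 3 and loops passing over stretches were not counted in the rest of the list, so these values do not set the MHC apart.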

How the data were processed

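The labels name 2 H3K27ac HiChIP libraries of KYSE180 cells. The authors aligned and filtered reads in HiC-Pro, then ran FitHiChIP ("Peak-To-All") to find loops associated with the transcription factor p63, and dropped any loop with an end outside H3K27ac. The peaks given to it are not named in the sources used here. The submitters' processing notes give hg19, and versions and thresholds are not given in the sources used here. The authors deposited 1 list with 2 columns of unnormalized counts without names, which were read as contacts and as coverage of the first bin. Over the 21636 first bins the coverage never differed between loops of a bin, and 0 loops had more contacts than coverage. Coverage summed to 368661 over first bins, but library depth is unknown, and no molecular identifiers are mentioned. How reads that match several near-identical HLA, complement or heat shock genes were aligned is not given.

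Members, parts and lists were chosen with earlier results of these data known. Named by rule were, in each part, the 3 anchors and 3 stretches with the most loops, the 2 first bins with the highest coverage, the 2 longest loops and the loops with 2 or more contacts, the 5 longest loops between parts, and gaps of at least 100 kb. Other bins and pairs, and the blocks, were chosen after their values were seen. Positions count from 1. The planned loops at promoters were not run, since the annotation is on hg38. Alternatives moved the boundaries of the parts, the minimum span and contacts, the windows and the merging of anchors. Scripts were tested on simulated lists. Intervals came from statsmodels 0.14.6 and scipy 1.17.1, tables from pandas 2.3.3 (numpy 2.4.6) and figures from matplotlib 3.10.9, in Python 3.11.15.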

Additional observations from a re-analysis of the deposited data

How the results depend on the processing

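Of 150 recomputed values of 48 results, 117 stayed within a factor of 1.5 (counts) or the 95% interval (shares and medians) and 33 moved. Shifting the boundaries between parts by 0.1 or 0.2 Mb moved no count of loops beyond that. No paired analysis was possible because the 2 libraries were of 1 condition and came as a single list, which also leaves no replicate to leave out. Most loops rest on 1 contact. Loops at gene promoters were not run under any setting. The cause of a change was not tested unless the construction of the alternative gives it.

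With parts set by the midpoint of a loop, classical class II had 6 loops in place of 3. The share of loops with 2 or more contacts fell with span. In the MHC it was 1.82% at 20 kb or more, 6.80% at 10 to 50 kb and 0% at 200 kb or more. It was 0% at 200 kb or more in class I and class III, and in class III also 1.56% at 20 kb or more and 0% at 50 to 200 kb. Loops with 2 or more contacts had a median span of 18 kb in the MHC, 30 kb in class I, 17 kb in class III and 28 kb in the rest of the list. At 20 kb or more the median was 92 kb in the MHC and 162 kb in the rest. The rest of chromosome 6 alone had a median span of 142 kb and 96.9% of loops on 1 contact. Counting each loop once, median coverage was 22 in the MHC and 15 in the rest. Loops with 2 or more contacts numbered 2.37 per Mb in the MHC, 2.63 in class I, 4.44 in class III and 0 in classical and extended class II. By these loops, 7.64% of other windows with such a loop had as many as the MHC, 11.5% as many as class I and 13.1% as many as class III, so the standing of these parts among windows is weaker on them. By anchors, these shares were 3.97% for class I and 1.53% for extended class II, and classical class II had 7.14 anchors per Mb. Merging anchors up to 4 kb apart left 3 stretches in classical and 9 in extended class II. Windows shifted along the genome were added after seeing the data and moved no share beyond its interval.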
